A study of Mus musculus with 10 samples.

Results

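The suppressors of cytokine signalling (SOCS) and the signal transducers and activators of transcription (STAT) were examined as 9 genes, namely Socs1, Socs2, Socs3, Cish, Stat3, Stat4, Stat5a, Stat5b and Stat6. All 22 probe sets that the platform annotation gives to these genes were taken, of 45037 on the array. A probe set was tested when its log2 intensity exceeded 5.78, the median of the whole table (an intensity of 55.1), on at least 2 of the 10 arrays. This held for 16 of the 22, with at least 1 for each gene, and for 25061 probe sets of the array. The RNA came from invariant natural killer T (iNKT) cells, lymphocytes that recognise lipids on CD1d, sorted from thymi of C57BL/6 mice 6 weeks old. The groups were Id3KO stage 1 (2 arrays), WT stage 1 (2), Id3KO stage 2 (3) and WT stage 2 (3), where Id3KO animals lack Id3, an inhibitor of E proteins, and WT animals carry it. Cells of both stages bound the tetramer and lacked CD24 and NK1.1, and CD44 was absent at stage 1 and present at stage 2. The replicates are called biological in the labels, which do not say whether an array stands for 1 mouse or for a pool.

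Cytokines bind receptor chains that carry Janus kinases (JAK), which phosphorylate STAT proteins, and these then enter the nucleus and switch on genes. Several SOCS proteins and CIS, the product of Cish, are themselves induced by STATs and inhibit the receptor or the kinase, which closes a feedback loop. In T cells Stat4 serves IL-12, Stat6 serves IL-4, Stat3 serves IL-6, IL-21 and IL-23, and Stat5a and Stat5b serve IL-2, IL-7 and IL-15, the last of which supports iNKT cells.

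Id3 itself had intensities of 54.2 to 69.8 on the 5 Id3KO arrays and of 818 to 1289 on the 5 WT arrays. The sources used here do not say whether its probe set lies in the deleted part. The median intensity of an array was 54.8 to 55.5. The number of arrays limits the precision of every value. All 8 analysed markers of T and iNKT cells (Cd3e, Cd3d, Cd3g, Cd247, Thy1, Cd2, Cd5 and Zbtb16) were above the level for testing, with a summed intensity of 11023 to 13291 on Id3KO arrays and of 12768 to 13948 on WT arrays. The members did not move together. Cd2, an adhesion receptor, rose at stage 1 (1158 in Id3KO cells and 529 in WT cells) and at stage 2 (994 and 482), while Thy1, a surface glycoprotein of T cells, fell at stage 2 (1168 in Id3KO cells and 2978 in WT cells). Averaged over the stages, Cd2 rose, Thy1 and Cd247, the zeta chain of the T cell receptor complex, fell, and the other 5 did not pass.

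The start regions of Socs3 and Cish are shown because, of the 8 genes with a promoter sequence in RefSeq (GRCm38.p6), these were the pair that held TTCNNNGAA, the letters of the gamma-activated site that STAT dimers bind. Each window runs from 250 bases before to 50 bases after the annotated start, 5′ to 3′ on the strand of the gene, with the matches in capitals. Socs3 lies at chr11:117969317-117969616 (minus strand) and Cish at chr9:107296409-107296708 (plus strand).
Socs3: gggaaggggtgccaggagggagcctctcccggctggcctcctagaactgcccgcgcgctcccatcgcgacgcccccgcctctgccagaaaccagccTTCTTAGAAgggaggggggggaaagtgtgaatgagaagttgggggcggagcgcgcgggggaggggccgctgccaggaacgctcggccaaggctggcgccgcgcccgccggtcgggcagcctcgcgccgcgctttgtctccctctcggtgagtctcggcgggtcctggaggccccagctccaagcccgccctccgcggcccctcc
Cish: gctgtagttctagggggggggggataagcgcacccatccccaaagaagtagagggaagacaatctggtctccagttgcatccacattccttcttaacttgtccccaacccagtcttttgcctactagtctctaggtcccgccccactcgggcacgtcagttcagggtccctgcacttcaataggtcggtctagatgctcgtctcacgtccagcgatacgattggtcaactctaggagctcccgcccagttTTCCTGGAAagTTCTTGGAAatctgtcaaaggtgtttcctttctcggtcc
The Socs3 match, TTCTTAGAA, began 154 bases before the start, and the Cish matches, TTCCTGGAA and TTCTTGGAA, began at bases 1 and 12 of the transcribed part. The motif reads the same on both strands. It was in 8.3% of the 32851 promoter windows, and 9.55% of the 27025 genes with a window held it. CANNTG, the E box that E proteins bind, was absent from the Socs3 window, occurred 1 time in that of Cish, and was in 72.3% of all windows. It was in 7 of the 11 windows of the 8 genes, with none in those of Socs1 and Stat6. A match of letters is not a measured binding site, and a missing one says only that this window lacks those letters.

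Socs3, which encodes an inhibitor of the signals of IL-6 and its relatives, fell in Id3KO cells at stage 2. Probe set 1455899_x_at had intensities of 64.8, 66.7 and 91.25 on the Id3KO arrays, against 337, 317 and 437 on the WT arrays. All Id3KO arrays lay far below all WT arrays, with means of 74.2 ± 14.8 and 363 ± 64.3 (SD, n = 3 each). The difference was -2.29 ± 0.17 (log2, SE, limma adjusted p = 0.000454), a 4.91-fold lower intensity. The Id3KO intensities of 64.8 and 66.7 lay near the array medians of 54.8 to 55.5, and 91.25 lay higher. These data do not show what this probe set reads without Socs3 RNA. The fold is therefore a ratio of intensities and not a measure of how much Socs3 RNA remained. Probe set 1456212_x_at was at 63.9, 63.1 and 68.25 in Id3KO cells, against 164, 165 and 242 in WT cells, a difference of -1.53 ± 0.16 (log2, SE, limma adjusted p = 0.00178). The third, 1416576_at, was at 71.2, 79.8 and 79.65 in Id3KO cells, against 91.1, 97.3 and 106 in WT cells. It too had no overlap, but its difference was -0.35 ± 0.08 (log2, SE, limma adjusted p = 0.0499). The 3 probe sets thus gave the same direction and different sizes, and the suffix _x_at marks probe sets of which some probes can bind other transcripts.

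**Figure D1:**
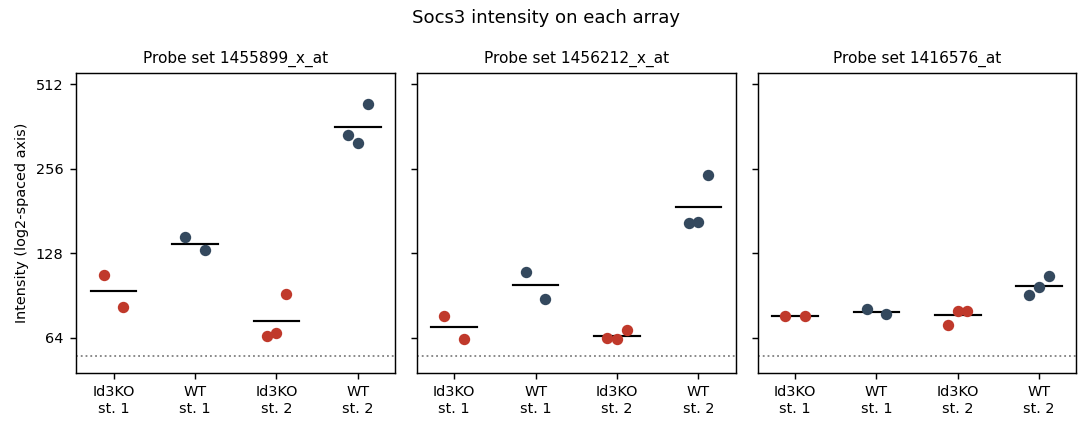
Intensity of the 3 Socs3 probe sets on each array (y axis on a log2 scale), by group, with Id3KO points in red and WT points in dark grey. Black bars are means of the log2 values, and the dotted line is the level for testing, an intensity of 55.1. WT stage 2 stands above the other groups in each panel, from 317 to 437 for 1455899_x_at.

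These were the 3 probe sets called among the 16 at stage 2, all lower and all of Socs3, while 0 were called higher. Over all 25061 probe sets, 2.39% were called lower and 1.82% higher. The calls of 1455899_x_at and 1456212_x_at held in every other setting tried, with an adjusted p of up to 0.00378 and 0.00931. That of 1416576_at held in 4 of 19 other settings, and its adjusted p ran from 0.0231 to 0.166, with 0.166 without WT replicate 3 of stage 2. It was lost without each of the 10 arrays in turn.

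At stage 1 the genotypes lay closer. For 1455899_x_at the Id3KO arrays read 107 and 82.4, against 146 and 131 for WT. There was no overlap, but the difference of -0.56 ± 0.21 (log2, SE, limma adjusted p = 0.393) did not pass. The difference was -0.50 ± 0.20 for 1456212_x_at (limma adjusted p = 0.421) and -0.05 ± 0.10 for 1416576_at (0.938). None of the 16 probe sets was called at stage 1 by limma, and 3 had an unadjusted p under 0.05, against 0.802% called and 10.5% at that unadjusted p over the array. Intensities of Id3KO and WT arrays were fully separate for 8 of the 16 at stage 1, against 41.5% of all, and for 7 of the 16 at stage 2, against 21.4%. All Socs3 probe sets were among these at both stages. The rest at stage 2 were of Stat3, Socs1 and Stat5a, so the 7 are not 7 genes. Averaged over the stages, the genotype difference was -1.43 ± 0.14 for 1455899_x_at (limma adjusted p = 0.000728) and -1.01 ± 0.13 for 1456212_x_at (0.0027), the 2 probe sets called, where 2.79% of all were called lower and 2.18% higher.

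Between stages, the WT arrays of 1455899_x_at read 337, 317 and 437 at stage 2, against 146 and 131 at stage 1. The stage 2 arrays were all higher, by 1.38 ± 0.19 (log2, SE, limma adjusted p = 0.0849), which missed the threshold. It passed with array weights (adjusted p = 0.0417) and reached 0.503 in the least favourable setting. In Id3KO cells the same probe set read 64.8, 66.7 and 91.25 at stage 2, against 107 and 82.4 at stage 1. Here the arrays overlapped, and the difference of -0.36 ± 0.19 (log2, SE, limma adjusted p = 1) did not pass. The interaction, that is the genotype difference at stage 2 minus that at stage 1, was -1.73 ± 0.27 (log2, SE), with an unadjusted p of 0.000154 and a limma adjusted p of 0.377. The genotype effects of the stages were therefore not shown to differ. In order of level on 1455899_x_at, WT stage 2 came first, then WT stage 1, Id3KO stage 1 and Id3KO stage 2. The neighbours in that order did not differ past the threshold. For 1456212_x_at and 1416576_at the WT stage difference was 0.93 ± 0.18 and 0.31 ± 0.09 (log2, SE). Their interaction was -1.03 ± 0.26 and -0.30 ± 0.13 (log2, SE), and none of these passed. On 1416576_at the Id3KO means were alike, at 76.9 at stage 2 and 76.5 at stage 1. For all 16 probe sets, 0 were called by limma between the stages of WT cells (6 at an unadjusted p under 0.05), between those of Id3KO cells (0 at that p) or for the interaction (4 at that p). Over the array 0.016% were called between WT stages, 0% between Id3KO stages and 0% for the interaction, and 8.06%, 4.51% and 7.07% had that unadjusted p. All Socs3 probe sets were among the 6 of the WT stages and among the 4 of the interaction, so these are not counts of genes.

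The genes whose pattern over the 10 arrays was closest to that of 1455899_x_at, by the root mean square difference of log2 values centred on each gene's mean, were sought among 20266 probe sets of single genes. They were Laptm4b, a lysosomal membrane protein (0.24), Tmem176a, a membrane protein of IL-17 producing cells (0.24), the transcript AW112010 (0.28), Pde5a, a cyclic GMP phosphodiesterase (0.29), and Sdc1, the proteoglycan syndecan 1 (0.30). The median over the genes compared was 0.96. Socs3 itself had a root mean square of 0.96 about its own mean, which is the value that a flat gene would give. Tmem176a averaged 51.6 in Id3KO stage 2 cells and 249 in WT stage 2 cells, and Sdc1 57.2 and 221. The Id3KO stage 2 mean of Tmem176a was below the level for testing, as were those of Laptm4b (41.2) and Pde5a (37.5). Since the 5 genes were picked for likeness to Socs3, these values are a description.

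**Figure D2:**
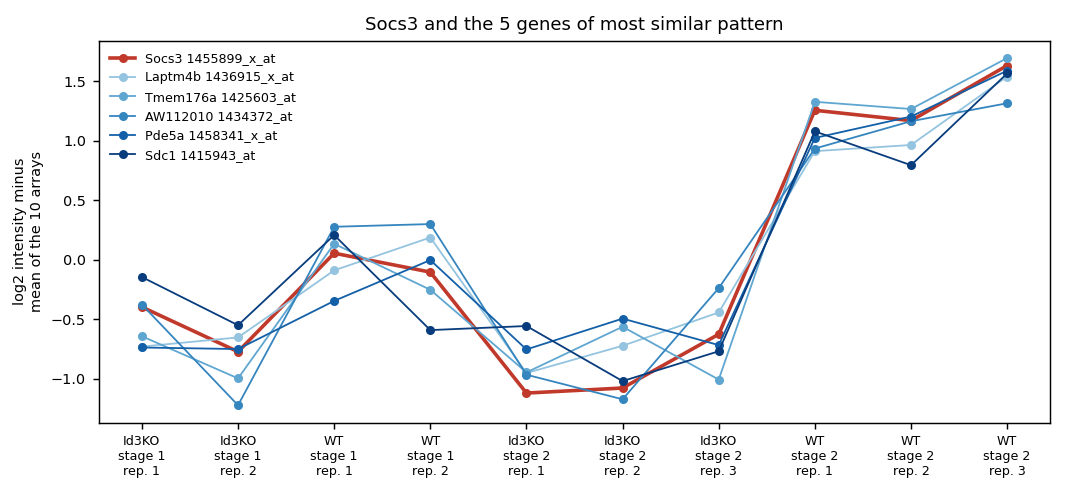
Log2 intensity minus the mean of the 10 arrays (y axis) for Socs3 probe set 1455899_x_at in red and for its 5 nearest genes in blues, with 1 array per position on the x axis. All 6 lines are highest on the 3 WT stage 2 arrays.

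Markers of iNKT subsets moved beside Socs3. The 11 analysed NKT17 markers, of the subset that makes IL-17, summed to 1101 to 1680 on Id3KO stage 2 arrays and to 3675 to 5614 on WT stage 2 arrays, and 9 of the 10 tested fell. Over the array 2.39% of tested probe sets were called lower at stage 2. At stage 1 the NKT17 markers summed to 1054 to 1214 in Id3KO cells and to 1701 to 1991 in WT cells, and 2 of the 10 fell. Tmem176a and Sdc1, named above for their likeness to Socs3, are among these markers, through other probe sets. In 3 of the 4 groups the array with the highest NKT17 sum also had the highest Socs3 intensity (1455899_x_at), namely replicate 1 of Id3KO stage 1 (1214 and 107), replicate 1 of WT stage 1 (1991 and 146) and replicate 3 of WT stage 2 (5614 and 437). In Id3KO stage 2 the highest NKT17 sum was on replicate 2 (1680, with a Socs3 intensity of 66.7), and the highest Socs3 intensity was on replicate 3 (91.25), which had the lowest NKT17 sum (1101). The 11 NKT1 markers, of the subset that makes interferon gamma, summed to 1432 to 1864 in Id3KO cells and to 4339 to 4410 in WT cells at stage 2, and 8 of the 10 tested fell. For NKT1 too, the array with the highest sum had the highest Socs3 intensity in 3 of the 4 groups. These were replicate 1 of Id3KO stage 1 (1789), replicate 1 of WT stage 1 (2192) and replicate 3 of Id3KO stage 2 (1864). In WT stage 2 the highest Socs3 intensity was on replicate 3, which had the lowest NKT1 sum (4339). Each stage 1 group held 2 arrays, so a match there has little weight. The NKT1 sums of WT arrays were also close, at 2192 and 2173 at stage 1 and 4339 to 4410 at stage 2. In groups this small such matches can arise without any link, so the NKT17 and NKT1 matches are a description. The 8 NKT2 markers summed to 6182 to 6932 in Id3KO cells and to 5777 to 6205 in WT cells at stage 2, where 1 rose (Plac8) and 1 fell (Il13). Plac8 is bright and averaged 3364 in Id3KO cells and 2339 in WT cells at stage 2. The median difference of the 8 was -0.12 (log2), so the higher sum does not describe the list as a whole. The part of subset numbers in the Socs3 result was not tested, and on arrays of sorted populations fewer cells of a type and less RNA per cell cannot be told apart. Among markers of other cells, 6 of 10 for myeloid and dendritic cells, 3 of 6 for B cells, 3 of 8 for double-positive thymocytes and 4 of 5 for thymic epithelium were bright enough to test, and 0 of them were called by limma at either stage. Ms4a1, Itgam, Itgax, Rag1 and Rag2 were below that level. The myeloid sum was 590 to 685 on Id3KO stage 2 arrays, against 556 to 573 on WT stage 2 arrays. Most of that difference was 1 gene, Fcer1g, a signalling chain of Fc receptors, at 149 ± 52.0 in Id3KO cells and 85.8 ± 3.07 in WT cells (SD, n = 3 each, limma adjusted p = 0.098). The other 5 tested had means of 53.4 to 76.7 in Id3KO cells and of 52.4 to 73.9 in WT cells.

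Cish, an inhibitor that STAT5 induces in T cells, differed in the same direction as Socs3 at stage 2 but did not pass. Its probe set, 1448724_at, read 119.57, 109 and 200.41 on the Id3KO arrays, against 206, 195 and 186 on the WT arrays. A pair of Id3KO arrays lay well below WT and replicate 3 lay within the WT range, so the groups overlapped. The difference was -0.51 ± 0.21 (log2, SE, 95% interval -0.98 to -0.04, limma adjusted p = 0.249). Without Id3KO replicate 3 of stage 2 it was -0.78 (limma adjusted p = 0.0115), and in the other settings the adjusted p reached 0.519. At stage 1 Cish read 147 and 142 in Id3KO cells, against 169.64 and 134 in WT cells, a difference of -0.06 ± 0.25 (log2, SE, limma adjusted p = 0.974).

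Socs1 and Socs2, a further inhibitor of JAK kinases and an inhibitor of growth hormone and related signals, lay near the level for testing. The single Socs1 probe set read 53.2 to 57.7 on the 5 Id3KO arrays and 56.3 to 66.7 on the 5 WT arrays. At stage 2 the Id3KO arrays (56.7, 53.2 and 57.7) all lay below the WT arrays (66.7, 58.75 and 60.2), but the difference of -0.15 ± 0.08 (log2, SE, limma adjusted p = 0.418) did not pass. Of the 6 Socs2 probe sets, 5 did not exceed the level on enough arrays and were not tested. The sixth, 1442586_at, exceeded it on 2 arrays, and its stage 2 difference was -0.03 ± 0.08 (log2, SE, limma adjusted p = 0.916). Intensities this low give little room to see a decrease.

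None of the STAT genes was called by limma in any of the 6 contrasts. Stat5a and Stat5b, which lie next to each other and to Stat3 in the gene order of chromosome 11, had a higher Id3KO than WT mean at both stages on each of their 3 tested probe sets. The tested Stat5a probe set, 1421469_a_at, read 196, 226 and 207 on Id3KO stage 2 arrays, against 184, 149 and 172 on WT stage 2 arrays. These did not overlap, and Stat5a was the one gene of the 9 with a tested probe set higher on all Id3KO arrays at stage 2, but the difference of 0.32 ± 0.10 (log2, SE, 95% interval 0.10 to 0.54) did not pass (limma adjusted p = 0.116). At stage 1 Stat5a read 215 and 200.04 in Id3KO cells, against 204 and 196 in WT cells, a difference of 0.05 ± 0.12 (log2, SE, limma adjusted p = 0.947).

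No Stat5b difference passed. At stage 1 probe set 1422102_a_at read 114 and 119 in Id3KO cells, against 91.6 and 96.5 in WT cells, without overlap, a difference of 0.31 ± 0.10 (log2, SE, limma adjusted p = 0.284). Probe set 1422103_a_at read 278 and 281 in Id3KO cells, against 211 and 262 in WT cells, a difference of 0.25 ± 0.18 (log2, SE, limma adjusted p = 0.714). At stage 2 they stood at 0.03 ± 0.08 and 0.21 ± 0.14 (log2, SE, limma adjusted p = 0.927 and 0.553). For 1422102_a_at stage 2 was lower than stage 1 on all Id3KO arrays (-0.16 ± 0.09) and higher on all WT arrays (0.13 ± 0.09), with an interaction of -0.28 ± 0.13 (log2, SE, limma adjusted p = 0.71) that did not pass. The other probe set, 1422103_a_at, did not show these opposite directions. Its mean was lower at stage 2 in both genotypes, by -0.33 ± 0.16 in Id3KO cells, without overlap, and by -0.29 ± 0.16 in WT cells, with overlap, and its interaction was -0.04 ± 0.23 (log2, SE, limma adjusted p = 0.986).

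Stat4 was dim, above the level for testing on 5 arrays. It read 59.7 and 51.1 in Id3KO stage 1 cells, against 43.15 and 44.7 in WT stage 1 cells, and 48.3, 62.1 and 59.6 in Id3KO stage 2 cells, against 79.9, 54.3 and 71.2 in WT stage 2 cells. The genotypes did not overlap at stage 1 and did at stage 2. The differences of 0.33 ± 0.19 at stage 1 and -0.26 ± 0.15 at stage 2 (log2, SE, limma adjusted p = 0.619 and 0.456) did not pass. In WT cells stage 2 stood 0.62 ± 0.17 above stage 1 (log2, SE, limma adjusted p = 0.384), and the WT stage 1 mean of 43.9 was below the level for testing.

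Stat3, the STAT that Socs3 restrains, had 4 tested probe sets. Of these, 1460700_at read 227, 238 and 219 on Id3KO stage 2 arrays, against 229, 246 and 293 on WT stage 2 arrays. The groups overlapped, and the difference was -0.16 ± 0.14 (log2, SE, 95% interval -0.48 to 0.16, limma adjusted p = 0.665). Probe set 1426587_a_at lay lower on all Id3KO arrays at both stages, by -0.29 ± 0.15 at stage 1 and -0.22 ± 0.12 at stage 2 (log2, SE, limma adjusted p = 0.564 and 0.425), and did not pass at either. Averaged over the stages it stood at -0.25 ± 0.09 (log2, SE, limma adjusted p = 0.209). The other Stat3 probe sets, 1459961_a_at and 1424272_at, were at 0.05 and -0.07 at stage 2 (log2 difference). On 1424272_at the Id3KO stage 2 arrays (56.6, 58.1 and 59.1) all lay below the WT stage 2 arrays (62.0, 61.5 and 59.5). This small difference did not pass (limma adjusted p = 0.649).

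Stat6, which directs type 2 responses, did not pass in any contrast. Its probe set 1426353_at read 254, 261 and 301 in Id3KO stage 2 cells, against 316, 268 and 287 in WT stage 2 cells. The arrays overlapped, and the difference was -0.10 ± 0.09 (log2, SE, 95% interval -0.30 to 0.11, limma adjusted p = 0.686). At stage 1 it read 256 and 254 in Id3KO cells, against 249.58 and 243 in WT cells, a difference of 0.05 ± 0.11 (log2, SE, limma adjusted p = 0.944). The other, 1421708_a_at, was at -0.05 at stage 1 and 0.01 at stage 2 (log2 difference).

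**Figure D3:**
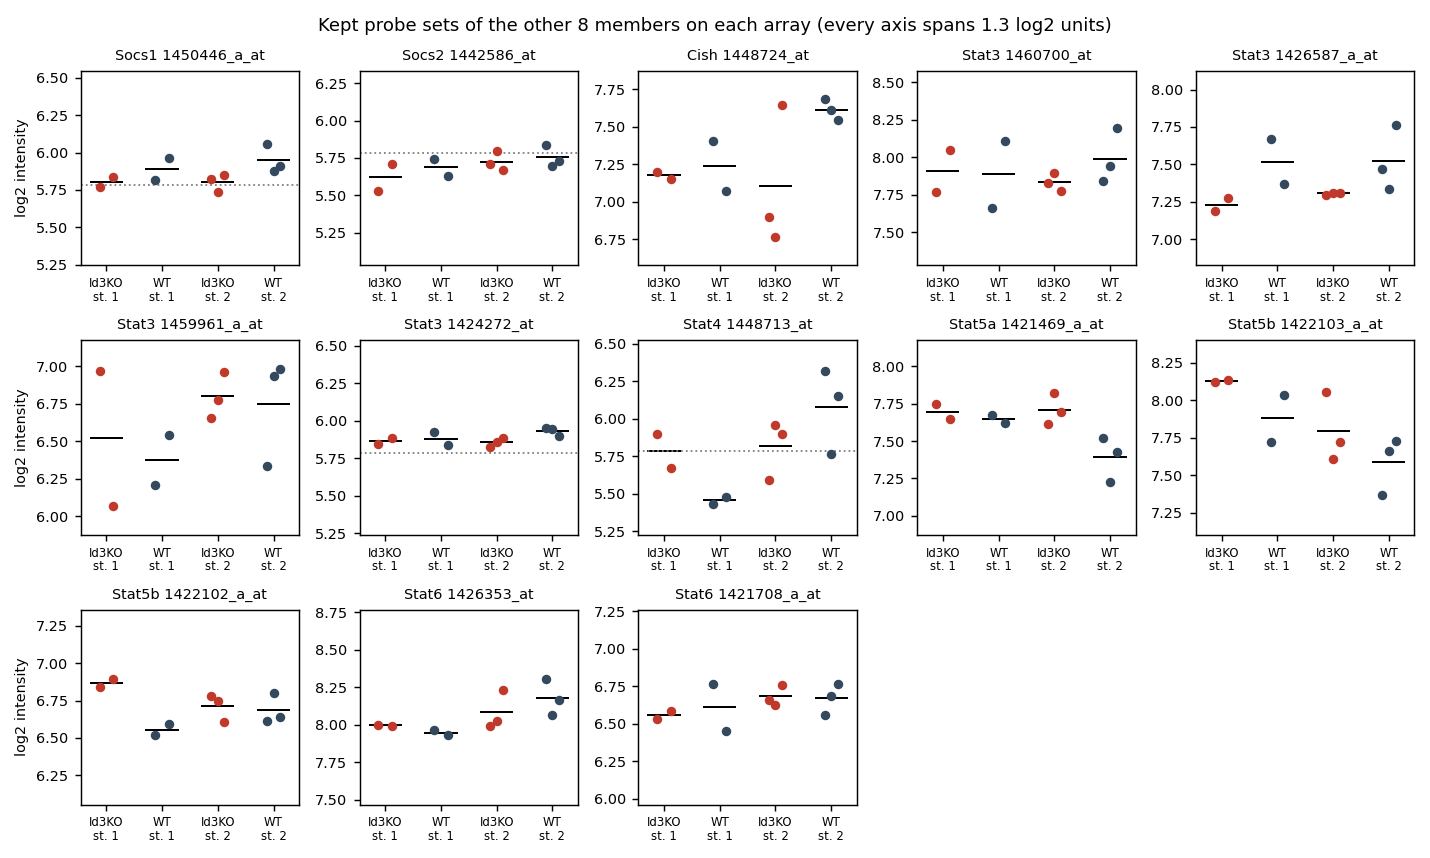
Log2 intensity (y axis, 1.3 units in every panel) of the 13 tested probe sets of the other 8 genes on each array, by group, with Id3KO in red, WT in dark grey and bars at the mean. The dotted line, where in range, is the level for testing, 5.78. The Cish panel shows Id3KO stage 2 replicate 3 among the WT stage 2 arrays.

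**Figure D4:**
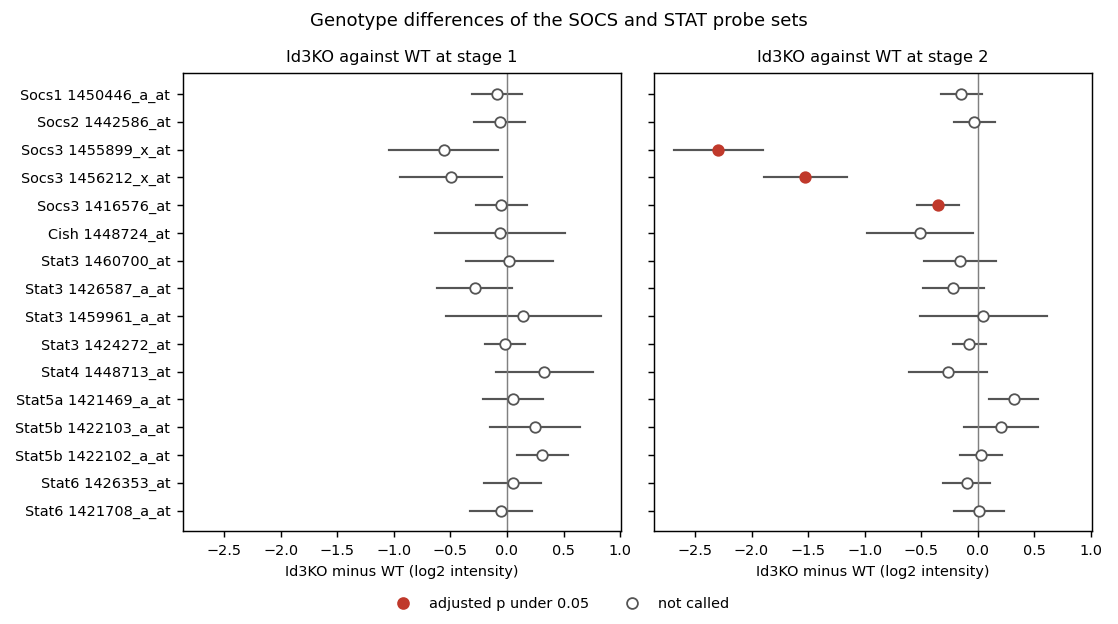
Id3KO minus WT difference in log2 intensity (x axis) of the 16 tested probe sets at stage 1 on the left and stage 2 on the right, with 95% intervals from limma. Filled red points passed an adjusted p of 0.05, and these are the 3 Socs3 probe sets at stage 2, at -2.29, -1.53 and -0.35.

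With 1 probe set per gene, the 9 genes had a median difference of -0.15 (log2) at stage 2, with 1 called lower, 0 higher and 8 not called, and of 0.02 at stage 1 with 0 called. The median over all tested probe sets was 0.01 at stage 2 and -0.01 at stage 1. The 5 other family genes analysed (Socs4, Socs5, Socs6, Socs7 and Stat2) had a median of -0.01 at stage 2 and 0 calls. Of these, Stat2, a STAT of interferon signalling, was lower on all Id3KO arrays at stage 2, by -0.25 ± 0.08 (log2, SE, limma adjusted p = 0.145).

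Upstream, 0 of the 4 Janus kinases were called by limma at stage 2, with a median of -0.35. Jak2 averaged 494 ± 114 in Id3KO cells and 754 ± 148 in WT cells (SD, n = 3 each), a difference of -0.62 ± 0.19 (log2, SE, limma adjusted p = 0.126), and Jak1, the kinase shared by most of these receptors, stood at 0.03 ± 0.11 (log2, SE). Of 15 tested receptor chains 6 fell, 0 rose and 9 did not pass at stage 2, with a median of -0.44, where 2.39% of all tested probe sets were called lower and 1.82% higher. Those that fell were Il7r, the IL-7 receptor (-1.07 ± 0.21), Il2rb, the chain shared by IL-2 and IL-15 (-0.95 ± 0.20), Il12rb1, a chain of the IL-12 and IL-23 receptors (-0.88 ± 0.15), Ifngr2 (-0.76 ± 0.12) and Ifngr1 (-0.72 ± 0.15), which bind interferon gamma, and Il10rb, of the IL-10 receptor (-0.37 ± 0.07, all log2 with SE). Il2rb averaged 129 ± 36.1 in Id3KO cells and 244 ± 24.0 in WT cells (SD, n = 3 each). Further probe sets of Il7r (-1.12), Il2rb (-0.25), Ifngr2 (-0.08) and Il10rb (-0.21) did not pass. Neither did a second one of Jak2 (-0.08) nor 2 more of Jak1 (-0.27 and 0.16, all log2 differences). The Jak1 probe set at -0.27 was lower on all Id3KO arrays (limma adjusted p = 0.161). When genotype was averaged over the stages, 2 of the 15 chains rose and 4 fell. Over the array 2.18% were called higher and 2.79% lower in that average. Il6st, the gp130 chain at which Socs3 acts (0.77 ± 0.14, log2, SE, limma adjusted p = 0.0145), and Il21r (0.39 ± 0.08, 0.0224) rose. At a single stage 0 chains rose. Il7r (-0.96 ± 0.17), Il12rb1 (-0.77 ± 0.12), Ifngr2 (-0.49 ± 0.10) and Il10rb (-0.27 ± 0.06, all log2 with SE) fell. A further Il7r probe set fell too (-1.03), while those of Ifngr2 (-0.17) and Il10rb (0.05, all log2) did not pass. A second Il6st probe set stood at 0.41 (log2) in that average and did not pass. Il6st averaged 225 in Id3KO stage 1 cells against 114 in WT stage 1 cells, and 184 in Id3KO stage 2 cells against 126 in WT stage 2 cells. At stage 1, 0 of the 15 chains were called by limma.

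Of 7 tested cytokine genes Il13 (-0.58 ± 0.12) and Ifng (-0.69 ± 0.09, log2 with SE) fell at stage 2, and 5 did not pass. At that stage 2.39% of all tested probe sets were called lower and 1.82% higher. Il13, a type 2 cytokine, also fell at stage 1 (-0.98 ± 0.15). The Id3KO stage 2 mean of Ifng, 45.7, was below the level for testing. Of 13 other inhibitors of JAK and STAT signals, among them Ptpn2, Ptpn6 and the Pias genes, 0 were called at either stage, with a median of 0.03 at stage 2. Of 20 tested STAT target genes 5 fell, 2 rose and 13 did not pass at stage 2, with a median of -0.23. The falling genes were Tbx21, the T-box factor T-bet (-1.79 ± 0.19), Ifng, Irf1, an interferon response factor (-0.58 ± 0.11), Ccnd2, cyclin D2 (-0.57 ± 0.13), and Mcl1, a survival factor (-0.46 ± 0.11). Those that rose were Bcl6, a transcriptional repressor that directs follicular helper fate (1.12 ± 0.13), and Pim3, a kinase (0.66 ± 0.11, all log2 with SE). Of the further probe sets, 4 of 6 for Ccnd2 fell too, while the 5 for Mcl1 (-0.43 to 0.16, log2) and the 1 for Pim3 (0.45) did not pass. At stage 1, 0 of the 20 were called by limma. Tbx21, Ifng and Il2rb are also NKT1 markers, and Il13 is an NKT2 marker.

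**Figure D5:**
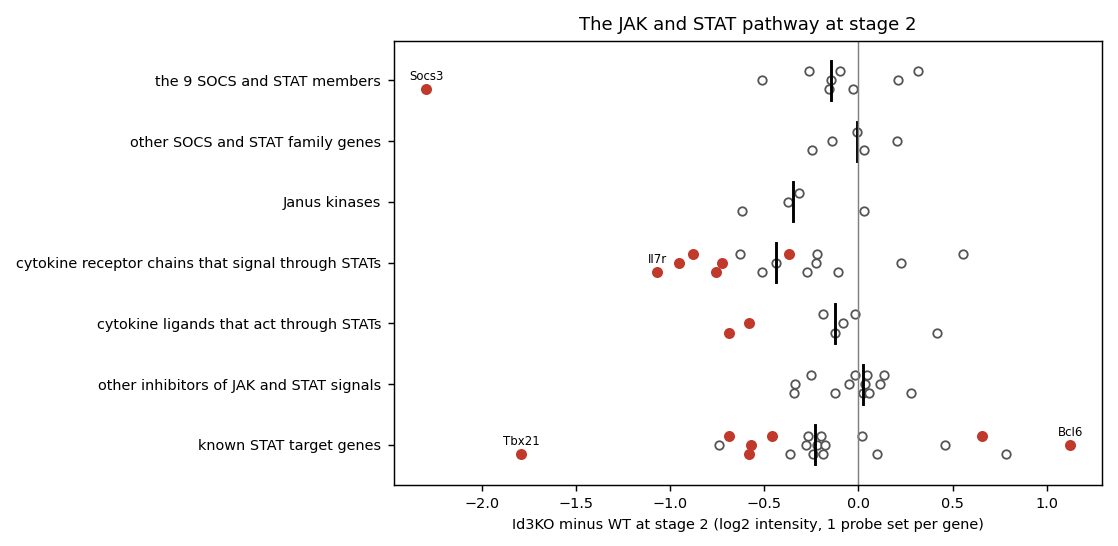
Id3KO minus WT difference at stage 2 in log2 intensity (x axis), with 1 point per gene, for the 9 SOCS and STAT genes and 6 further lists of the pathway. Filled red points passed limma's adjusted p of 0.05, and black bars are list medians, from -0.44 for receptor chains to 0.03 for other inhibitors. Names are given for called genes beyond 1 log2 unit.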

How the data were processed

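The authors deposited 1 linear intensity per probe set and array, from 29 to 15399, made with RMA (version not given) per the submitters' processing notes. RNA was amplified in 2 cycles before labelling, per the labels, which can distort the levels of dim transcripts. After log2 transformation, a linear model with a mean for each of the 4 groups was fitted to the 10 arrays in limma 3.58.1 (R 4.3.3), with two-sided tests on 6 residual and 2.8 prior degrees of freedom. P-values of the 6 contrasts were each adjusted by Benjamini-Hochberg over the 25061 tested probe sets, and a call needed an adjusted p under 0.05. Of these probe sets 20942 had 1 gene, 593 several and 3526 none in the platform annotation. Lists used the probe set of highest mean per gene. The genes, their lists and the tests were chosen with earlier results of these data known. The text names all 9 genes, list genes as examples, and the 5 genes nearest in pattern to the probe set with the widest range of group means. The code of the fit was tried on simulated data with independent normal noise, as the model assumes, which does not test the calls made here. Levels of different probe sets cannot be compared.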

Additional observations from a re-analysis of the deposited data

How the results depend on the processing

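Over the 16 tested probe sets and 6 contrasts, 20 other settings were tried, among them no filter, a filter at log2 6.5, a further quantile normalization, median centring, array weights, a robust prior with an intensity trend, a replicate block, a fit to the compared arrays alone, 1 probe set per gene, and each array left out in turn. Of 5 calls, 4 held in every setting that tested them, and the exception was Socs3 1416576_at at stage 2. Of 91 differences not called, 3 were called in at least 1 setting (Cish in 2 contrasts, Socs3 between WT stages), and 56 kept their sign throughout. With 1 probe set per gene the count of called SOCS and STAT probe sets fell to 1 at stage 2 and to 1 over the stages, since this keeps a single Socs3 probe set. With array weights 1 was called between the WT stages.

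Replicate numbers were not taken as pairs: same-numbered arrays of different groups had deviations correlated from -0.31 to 0.13, above 0.1 in 2 of 13 pairs. Differently numbered arrays ran from -0.19 to 0.31, above 0.1 in 7 of 24 pairs. In a group of 2 arrays the deviations mirror each other, so these pairs are not independent. They cannot show whether arrays shared a batch. With the replicate block 2 probe sets were called at stage 2, and 2 when the 2 Id3KO stage 1 numbers were exchanged, a setting added after the data were seen. Leaving out each array gave 2 to 3 at stage 2.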
